A study of Mus musculus with 18 samples.

Results

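Apoa1, Acat3 and Slc10a1 are 3 genes of lipid and bile acid handling whose messenger RNA was measured in scraped enterocytes, the absorptive cells of the gut lining, of the jejunum. They were chosen by name among the 51 genes that the authors list for this tissue, and their intensities were then read on all 18 arrays, which together hold 6914 features. The authors picked those 51 genes on the same mice, so the presence of a gene in the list is not independent evidence of a change. Each gene has 1 array feature, number 20313 for Apoa1 (probe A_51_P408082), 21811 for Acat3 (probe A_66_P101407) and 5199 for Slc10a1 (probe A_52_P69109).

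Male BALB/cOlaHsd mice, 8 weeks old at the start, were gavaged daily for 20 days in 6 groups of 12, and 3 mice per group were measured, each on its own 1-colour (Cy3) Agilent array. All received standard chow. Controls (Ctr) were gavaged with water, and ADI mice with 9 pesticides together, each dosed at its acceptable daily intake. The other groups were given 30 mg of potato flour a day, made with the skin. PC stands for conventional and PO for organic cultivation, and PCS and POS for the same after storage. POS mouse 3 is labelled day 27, which is 7 days after the gavage ended, and the others day 20.

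Apoa1 encodes apolipoprotein A-I, the main protein of high-density lipoprotein, which liver and intestine secrete and which takes up cholesterol from cells. Acat3 encodes an acetyl-CoA acetyltransferase, an enzyme of the thiolase family, which the authors' deposited table annotates with fatty acid beta-oxidation. Slc10a1 encodes NTCP, the sodium-dependent transporter that takes bile acids from blood into hepatocytes. In the intestine bile acids are taken up chiefly by its relative Slc10a2 in the ileum. A list of 58 genes of lipid and bile acid handling was drawn up from textbook knowledge, and of these the files name only these 3 and Apom, an apolipoprotein of high-density lipoprotein.

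The stretches upstream of the transcription starts of Apoa1 and Slc10a1 are shown because both genes belong to programmes of liver and gut in which nuclear receptors are known regulators. They come from RefSeq on GRCm38.p6, cover the 250 bases before the start, and read 5′ to 3′ on the strand of the gene, at chr9:46228380-46228629 (+ strand) and chr12:80968706-80968955 (- strand). Capitals mark matches, on either strand, to AGGTCA (the nuclear receptor half-site), its variant AGTTCA, the palindromic HNF1 motif or the TATA box TATAAA.
Apoa1: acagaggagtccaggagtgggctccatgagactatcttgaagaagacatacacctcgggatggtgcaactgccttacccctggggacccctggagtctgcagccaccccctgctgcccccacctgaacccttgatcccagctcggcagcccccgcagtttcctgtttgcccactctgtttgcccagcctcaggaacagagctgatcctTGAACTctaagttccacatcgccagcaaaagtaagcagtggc
Slc10a1: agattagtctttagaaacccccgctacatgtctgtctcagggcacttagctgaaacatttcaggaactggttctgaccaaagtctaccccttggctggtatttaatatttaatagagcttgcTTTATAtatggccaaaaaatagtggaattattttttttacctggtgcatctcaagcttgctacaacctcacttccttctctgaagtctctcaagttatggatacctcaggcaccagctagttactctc
The Apoa1 stretch is 58.0% G and C and holds 1 match, to AGTTCA on the opposite strand, 42 bases before the start. The Slc10a1 stretch is 40.8% G and C and holds 1 match, to TATAAA on the opposite strand, 128 bases before the start. Of 2 upstream windows given for Slc10a1, only that at the outermost start of the gene is shown and described. Among 32851 such windows in the table, 11.8% hold AGTTCA, 12.4% TATAAA, 14.0% AGGTCA and 0.00913% the HNF1 motif, so neither match sets these genes apart.

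Brightness differed widely between arrays and touches every value below. Over 5021 features, those without a blank cell, the median intensity was 168 to 256 in controls and 5 to 507 in the other groups. PO array 2 stood apart, with a median of 5, 84.2% of its values under 16 and a median Spearman correlation of 0.36 with the other arrays, across features, and values that it moves are also given without it. Each gene is therefore described as deposited (log2 intensity, with values set to at least 1) and as the log2 distance above the median of its own array. In whole enterocyte scrapings, fewer cells of a type and less RNA per cell cannot be told apart. Of 12 enterocyte markers only Apoa1 has a name in the files, of 7 hepatocyte markers only Slc10a1 and of 4 T cell markers only Cd2, and no marker of the other 9 cell types listed is named. The labelled cell type could therefore not be checked beyond Apoa1, and the part that other cells have in the results was not tested.

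Apoa1 was among the brightest features. On the 17 arrays other than PO array 2 its intensity was at or above that of 95.6% to 98.4% of features, and on PO array 2 of 84.6%. Its intensity was 13296, 16287 and 17841 in control mice 1, 2 and 3. It was 16219, 11304 and 1886 in ADI mice and 1777, 6001 and 4447 in PC mice. All 3 PC mice lay below all 3 controls, whereas ADI mouse 1 lay within the control range. Apoa1 was at 6931, 16 and 27415 in PO mice, at 4683, 12383 and 31826 in PCS mice and at 7549, 22713 and 3387 in POS mice. These groups straddled the controls, with the highest value on the brightest array, that of PCS mouse 3, and the lowest on the dimmest, that of PO mouse 2.

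As deposited, the mean log2 intensity of Apoa1 was 13.94 ± 0.22 (SD, n = 3) in controls, 12.78 ± 1.66 in ADI and 11.82 ± 0.91 in PC mice. For the PO group it was 10.50 ± 5.72, for PCS 13.58 ± 1.38 and for POS 13.03 ± 1.38. In the order of these means each group overlapped with the next. The PO mean was 13.75 without PO array 2, next to the controls. In limma, with 6 group means fitted over all 18 arrays, Apoa1 differed from controls by -1.16 (SE 1.82, adjusted p = 0.889) in ADI and by -2.12 (SE 1.82, adjusted p = 0.559) in PC mice. The difference was -3.44 in PO (adjusted p = 0.344), -0.36 in PCS (adjusted p = 1.00) and -0.91 in POS mice (adjusted p = 0.999). The median feature moved by -0.90, -1.55, -1.98, -0.16 and -0.53 in the same comparisons. The value in PO mice was -0.19 without PO array 2, and in ADI mice it was -0.21 without ADI array 3. Without PO array 3 the difference in PO mice was -5.56 and passed in limma (adjusted p = 0.0269), together with 58.5% of features called lower. Without POS mouse 3, the day 27 mouse, the POS value was -0.26. In PCS mice it turned to 0.34 without PCS array 1.

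Relative to the array median most of this spread fell away. Apoa1 stood 6.30 ± 0.17 (log2, SD, n = 3) above the median in controls, 5.99 ± 0.30 in ADI, 5.73 ± 0.38 in PC, 5.99 ± 0.28 in PCS and 5.89 ± 0.28 in POS mice. In PO mice the mean was 4.72 ± 2.63, from 6.27, 1.68 and 6.21 in PO mice 1, 2 and 3, and the low value is that of PO array 2. Over the other 17 arrays the highest and the lowest value were 1.16 apart, against 4.16 as deposited. The centred differences from controls were -0.31 in ADI, -0.57 in PC, -0.31 in PCS and -0.41 in POS mice, with adjusted p values in limma from 0.883 to 1.00. In PO mice it was -1.58 (adjusted p = 0.285) and -0.060 without PO array 2.

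All 3 PC mice stayed below all 3 controls after centring, and in no other group did Apoa1 stand clear of the controls. As deposited, 71.3% of all features were lower in PC mice without overlap, and 15.7% after centring, so the separation of Apoa1 as deposited is that of most features. When PC and control arrays were fitted alone, Apoa1 passed as deposited (adjusted p = 0.00736), as did Acat3 (adjusted p = 0.00656), among 68.7% of features called lower. With centred arrays that fit gave adjusted p values of 0.252 for Apoa1 and 0.116 for Acat3 and called 0% lower.

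Acat3 was similarly bright, at or above 92.1% to 98.3% of features on 17 arrays and 82.9% on PO array 2. On chromosome 17 it is the immediate neighbour of Acat2, a gene of the same family, and the sequence of the probe was not used here, so signal from Acat2 cannot be told apart. Its intensity was 11253, 15502 and 18972 in controls, 11512, 7410 and 819 in ADI mice and 1027, 3227 and 3619 in PC mice. The 3 PC mice were below all controls, and ADI mouse 1 was just above control mouse 1. In PO mice Acat3 was at 5104, 14 and 26350, in PCS mice at 2831, 4923 and 18393 and in POS mice at 5014, 16908 and 2347. In each of these 3 groups 1 mouse, that with the brightest array, reached into or above the control range.

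The mean log2 intensity of Acat3 as deposited was 13.86 ± 0.38 (SD, n = 3) in controls, 12.01 ± 2.04 in ADI and 11.16 ± 1.00 in PC mice. For the PO group it was 10.27 ± 5.72, for PCS 12.63 ± 1.39 and for POS 12.51 ± 1.44. The differences from controls were -1.86 for ADI and -2.70 for PC mice, -3.59 for PO, -1.23 for PCS and -1.35 for POS mice. Standard errors were 1.85 each, and the adjusted p in limma was 0.889, 0.559, 0.344, 1.00 and 0.999 in that order. Leaving out PO array 2 changed the PO difference to -0.36. With PO array 3 left out instead, Acat3 was at -5.80 and passed in limma (adjusted p = 0.0269). That fit called 58.5% of all features lower, so the call is not particular to Acat3. Without POS mouse 3 the POS value was -0.69.

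Centred on the array median, Acat3 was lower than every control in all mice of 4 groups. It stood 6.22 ± 0.17 (SD, n = 3) above the median in controls, with 6.07, 6.40 and 6.22 in control mice 1, 2 and 3. In PCS mice it was at 4.99, 4.95 and 5.18, a mean of 5.04 ± 0.12, and the groups did not overlap. It was at 5.22 ± 0.65 in ADI, 5.07 ± 0.62 in PC and 5.37 ± 0.36 in POS mice, also without overlap. The PO arrays 1 and 3 were at 5.83 and 6.15, below and within the control range, and PO array 2 at 1.49. With all arrays, controls were the highest group and were clear of the next one, POS, while the remaining groups overlapped with their neighbours in order. Without PO array 2 the PO mean was 5.99, next to the controls and overlapping with them, and both PO mice were above all POS mice. How many other features separated PO from POS in this way was not counted.

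The centred difference of Acat3 from controls was -1.01 (SE 0.86) in ADI, -1.15 in PC, -1.18 in PCS and -0.85 in POS mice. In PO mice it was -1.74, and -0.23 without PO array 2. None passed the test in limma, with adjusted p values of 1.00, 0.811, 0.868 and 0.939 in these 4 groups and 0.260 in PO mice. Features that were lower than the controls without overlap made up 9.66% of all features in ADI, 15.7% in PC, 13.2% in PCS and 15.2% in POS mice, and 18.6% in PO mice, where Acat3 overlapped. Acat3 was under 0.5 times the control mean in 3 of 3 PCS mice after centring, as were 0.578% of features. These comparisons share the same 3 controls. With single arrays left out, the centred difference ranged from -1.26 to -1.10 in PCS and from -1.23 to -0.63 in ADI mice.

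**Figure D1:**
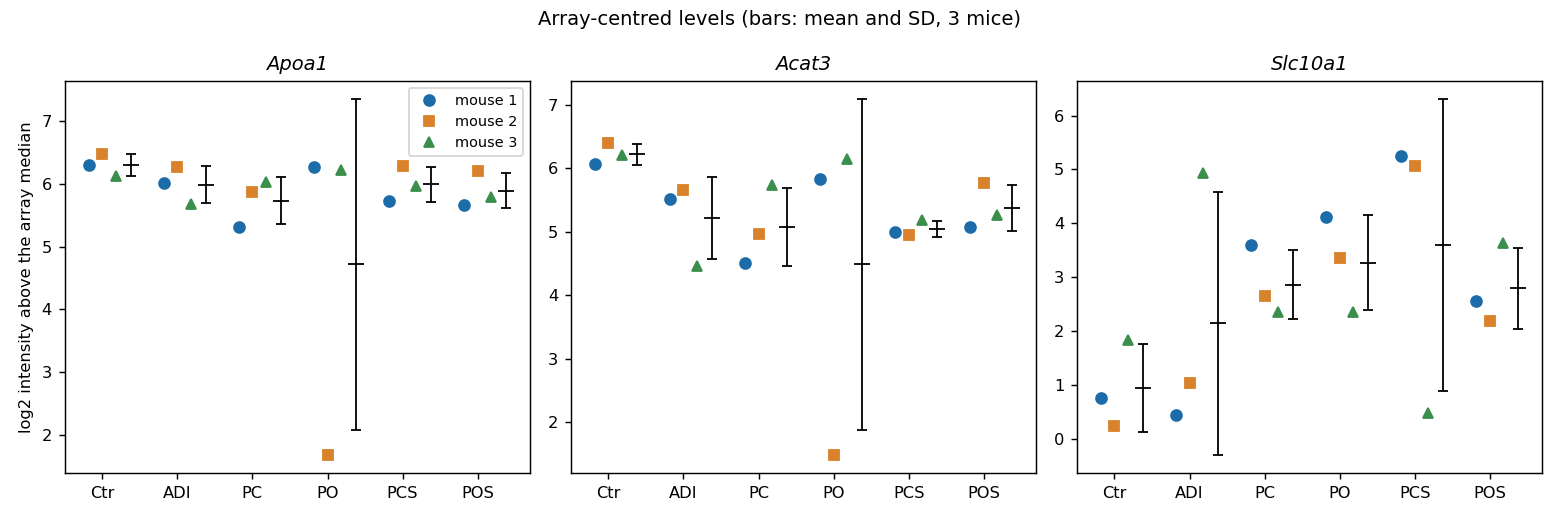
Log2 intensity above the median of the same array (vertical axis, which differs between panels) for Apoa1, Acat3 and Slc10a1 in the 3 mice of each group, with the mean and SD. Acat3 lies below every control in ADI, PC, PCS and POS mice, and Slc10a1 lies above every control in PC, PO and POS mice but not in PCS mouse 3, at 0.47.

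In the ratio of Apoa1 to Acat3 within an array, brightness that scales all features alike cancels, whereas added background does not. On PO array 2, near background, these genes were at 16 and 14. The ratio was examined after the values had been seen. Its log2 value was 0.24, 0.071 and -0.089 in control mice 1, 2 and 3. It was 0.49, 0.61 and 1.20 in ADI mice and 0.79, 0.90 and 0.30 in PC mice. All 6 of these mice exceeded every control. The ratio was 0.73, 1.33 and 0.79 in PCS mice and 0.59, 0.43 and 0.53 in POS mice, again above every control. In PO mice it was 0.44, 0.19 and 0.057, so only PO mouse 1 exceeded the controls. In all, 13 of 15 exposed mice lay above the highest control, and all were set against the same 3 controls. How often the ratio of Apoa1 to other features reaches this count was not examined.

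The mean log2 ratio was 0.074 ± 0.16 (SD, n = 3) in controls and exceeded that by 0.69 in ADI, 0.59 in PC, 0.87 in PCS and 0.44 in POS mice, and by 0.16 in PO mice. With single arrays left out it stayed above 0 in each group, with the lowest value, 0.050, in PO mice. When Apoa1 was set against each of the other 5020 features in turn, the ratio was higher without overlap for 1.47% of them in ADI, 2.39% in PC, 2.45% in PCS and 2.85% in POS mice, and for 0.398% in PO mice, where Acat3 was not among them. No test was made of this ratio, since both genes were chosen with results known. It shows an unequal difference of Acat3 and Apoa1 and does not say which of them differed.

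**Figure D2:**
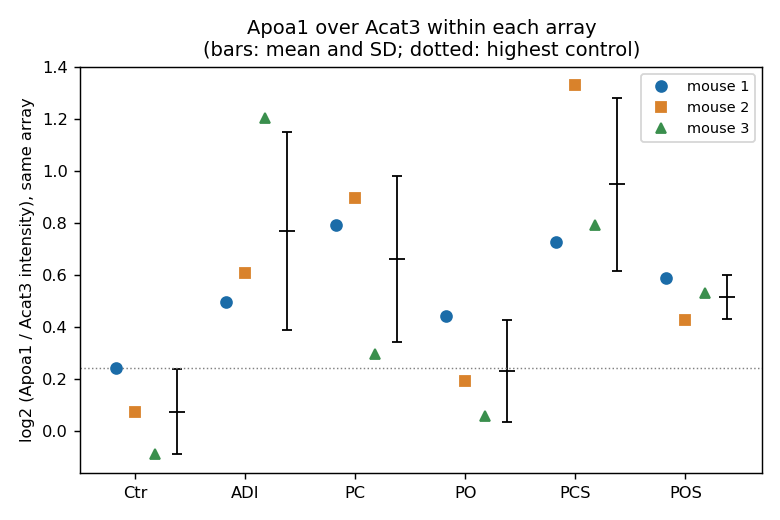
Log2 ratio of Apoa1 to Acat3 intensity on the same array (vertical axis) in the 3 mice of each group, with the mean and SD and a dotted line at the highest control, 0.24. All mice of the ADI, PC, PCS and POS groups lie above the line, and 1 of the 3 PO mice does.

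Slc10a1 was far dimmer than the other members on the control arrays, where its intensity was 283, 217 and 918 and its rank was at 61.3%, 53.7% and 73.1% of features. It was 340, 302 and 1137 in ADI mice and 543, 648 and 346 in PC mice. Both groups overlapped with the controls, in which mouse 3 was the highest. Slc10a1 was at 1557, 51 and 1881 in PO mice and at 882, 1406 and 760 in POS mice. In PCS mice it was at 3409, 5343 and 704. PCS mice 1 and 2 held the highest values of all 18 arrays and ranks of 95.9% and 95.6%, whereas PCS mouse 3 lay below control mouse 3 in spite of the brightest array and had a rank of 57.2%.

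The mean log2 intensity of Slc10a1 was 8.58 ± 1.11 (SD, n = 3) in controls, 8.93 ± 1.06 in ADI and 8.95 ± 0.47 in PC mice. For the PO group it was 9.05 ± 2.93, for PCS 11.19 ± 1.54 and for POS 9.94 ± 0.46. All neighbours in this order overlapped. With PO array 2 left out the PO mean was 10.74, and PO did not overlap with POS, nor POS with PC. The share of all features separated in these ways was not counted, so the order cannot be read as particular to Slc10a1. As deposited, PCS mice were 2.61 above controls (SE 1.30, adjusted p = 1.00 in limma, unadjusted p = 0.058), with 3.48 without PCS array 3 and 2.01 without PCS array 2. POS mice were 1.35 above controls (adjusted p = 0.999). The differences in ADI, PC and PO mice were 0.35, 0.37 and 0.47, with adjusted p values of 0.912, 0.831 and 0.767. Without PO array 2 the PO value was 2.16, and without ADI array 3 the ADI value turned to -0.26.

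Relative to the array median Slc10a1 was higher than every control in all PC, PO and POS mice. It stood 0.94 ± 0.82 (SD, n = 3) above the median in controls, 2.86 ± 0.65 in PC, 3.27 ± 0.89 in PO and 2.80 ± 0.75 in POS mice. In PCS mice the values were 5.26, 5.07 and 0.47, a mean of 3.60 ± 2.71, and in ADI mice 0.44, 1.04 and 4.94, a mean of 2.14 ± 2.44. Both of these groups thus held mice within the control range and mice far above it. The centred differences were 1.92 in PC, 2.33 in PO (2.29 without PO array 2), 2.66 in PCS, 1.85 in POS and 1.20 in ADI mice. None passed in limma, with adjusted p values of 0.811, 0.276, 0.868, 0.919 and 1.00 in that order. Features higher than the controls without overlap made up 14.1% of all features in PC, 10.7% in PO and 12.4% in POS mice, and 4.32% in PCS and 3.07% in ADI mice. Slc10a1 was above 2 times the control mean in 3 of 3 PC, PO and POS mice after centring, as were 3.29%, 1.77% and 1.59% of features. The centred difference in PCS mice was 1.83 without PCS array 1, 1.92 without PCS array 2 and 4.22 without PCS array 3. In ADI mice it turned to -0.20 without ADI array 3, and in POS mice it was 1.43 without POS mouse 3.

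Unlike those of Apoa1 and Acat3, the spread of Slc10a1 did not shrink with centring. Its SD within groups was 1.51 as deposited and 1.62 after centring, against 2.59 and 1.11 for Apoa1, 2.65 and 1.14 for Acat3 and 1.82 and 0.67 for the median feature. Much of the SD of Apoa1 and Acat3, but not that of centred Slc10a1, came from PO array 2. Without it the SD of Slc10a1 was 0.97 as deposited and 1.69 after centring, that of Apoa1 1.24 and 0.28, that of Acat3 1.40 and 0.43 and that of the median feature 1.24 and 0.46. The centred level was set beside how like the controls an array was as a whole. The 3 arrays with the highest values, PCS arrays 1 and 2 and ADI array 3, had mean Spearman correlations with the control arrays of 0.81, 0.85 and 0.82, the lowest apart from PO array 2 at 0.28. The 6 arrays with the lowest values, the 3 controls, ADI arrays 1 and 2 and PCS array 3, had the 6 highest correlations, from 0.95 to 0.96. PO array 2, the least like the controls, was only in place 7 for Slc10a1, at 3.35, and PO array 1 was in place 4, at 4.11, with a correlation of 0.91. Arrays of ADI and of PCS mice were among both the highest and the lowest. The part that array quality has in the level of Slc10a1 was not tested.

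**Figure D3:**
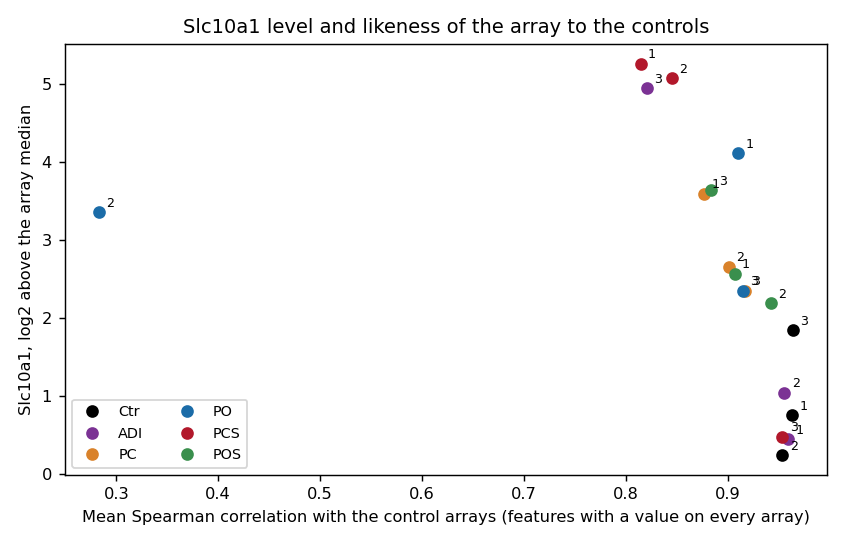
Slc10a1, in log2 above the array median (vertical axis), against the mean Spearman correlation of each array with the control arrays across features (horizontal axis), coloured by group and numbered by mouse. PCS mice 1 and 2 and ADI mouse 3 lie together at the upper left of the main cloud, at 5.26, 5.07 and 4.94, and PCS mouse 3 and ADI mouse 1 lie with the controls.

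Storage and cultivation were compared within the flour groups, again with 0% of features called in limma both as deposited and centred, as in the comparisons with controls. At an unadjusted p under 0.05 the 10 comparisons held between 1 and 523 features as deposited and between 15 and 1039 after centring. The highest count was that of PO against controls on both scales. Without any difference a share of 0.05 of the features is expected under that p on average, so these counts are not evidence of change. Slc10a1 was 2.24 higher in PCS than in PC mice as deposited (adjusted p = 0.567), without overlap, as were 19.4% of features, and the median feature was 1.38 higher. Centred, the difference was 0.74 and the groups overlapped. Apoa1 and Acat3 differed between PCS and PC mice by 1.76 and 1.47 as deposited and by 0.26 and -0.030 centred. Between POS and PO mice the centred differences were 1.17 for Apoa1, 0.88 for Acat3 and -0.47 for Slc10a1, and without PO array 2 they were -0.35, -0.62 and -0.43. Here all adjusted p values were 0.538 or higher, as deposited and centred.

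Conventional and organic flour gave centred differences, PC minus PO, of 1.01 for Apoa1, 0.58 for Acat3 and -0.41 for Slc10a1. Without PO array 2 they were -0.51, -0.92 and -0.36. For stored flour, PCS minus POS, they were 0.11, -0.33 and 0.80, and all 3 genes overlapped between the groups. The interaction, which asks whether the storage difference depends on the cultivation, was -0.91 for Apoa1, -0.91 for Acat3 and 1.21 for Slc10a1 (centred, adjusted p between 0.823 and 0.825). As deposited it was -0.77, -0.77 and 1.35, with an adjusted p of 1.00 each. Without PO array 2 it reversed for Apoa1 and Acat3, to 0.61 and 0.59 centred and 2.49 and 2.46 as deposited, and for Slc10a1 it was 1.17 and 3.04.

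The authors' deposited table gives log2 folds against the controls for single mice and lists 15 of the 45 cells of these genes as changed. For Apoa1 the authors' deposited table gives -1.41, -1.17 and -0.89 in ADI mice and -1.79, -1.72 and -1.89 in PC mice. The intensities over the control mean give 0.037, -0.48 and -3.07 in the same ADI mice and -3.15, -1.40 and -1.83 in the PC mice. The 2 sources share the direction in 5 of these 6 mice, and the listed folds lie much closer together. For Acat3 the authors' deposited table gives -0.83, -1.19 and -1.04 in ADI mice, where the intensities give -0.40, -1.04 and -4.22. Centred, the latter were -0.71, -0.58 and -1.76. It lists 0 for Acat3 in PC mice, although all 3 intensities there were under 0.5 times the control mean, as were 46.5% of features. After centring 2 of 3 were. It also lists 0 for Acat3 in PCS mice, where 3 of 3 were under 0.5 times after centring (0.578% of features). The same holds for Slc10a1 in PC and PO mice, where 3 of 3 were above 2 times after centring (3.29% and 1.77% of features).

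For Slc10a1 in PCS mice the authors' deposited table gives 1.97, 2.32 and 2.09, against 2.85, 3.50 and 0.57 from the intensities. Centred, the intensity ratios were 4.16, 3.97 and -0.63, so PCS mouse 3 lay below the control mean, against the listed direction. In POS mice the authors' deposited table gives 0.53, 0.65 and 0.99, and the intensities 0.90, 1.57 and 0.69. Per the file header, folds between 0.5 and 2 were set to 0. Read as log2 values the 3 POS cells are folds of 1.45, 1.57 and 1.99, inside those limits, as are the cells of Apoa1 in ADI mouse 3 (0.54-fold) and Acat3 in ADI mouse 1 (0.56-fold). If the 3 POS cells were linear ratios they would lie below the controls and again inside those limits. Neither reading meets the rule of the header, so the cells alone settle neither their scale nor their direction. The intensities of all 3 POS mice lay above the control mean, centred by 1.46, 1.08 and 2.53, which is the direction of the log2 reading. Across all 51 genes, the authors' deposited table has 57 of 66 non-zero cells inside the limits for POS mice and 27 of 66 for ADI mice. For PO mice these are 5 of 6, for PCS mice 4 of 66 and for PC mice 0 of 81.

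**Figure D4:**
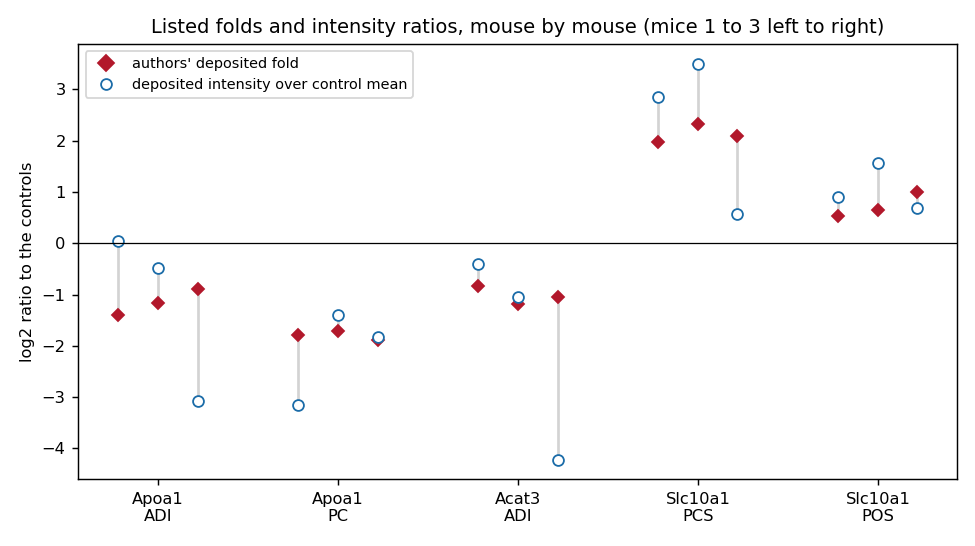
Log2 ratio to the controls (vertical axis) for each gene and group that the authors' deposited table lists, mouse by mouse, as the authors' fold (diamonds) and as the deposited intensity over the control mean (circles). The listed folds of Slc10a1 in PCS mice span 1.97 to 2.32, while the intensity ratios span 0.57 to 3.50.

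Apom, the other listed apolipoprotein, has folds of -1.08, -1.12 and -1.53 in ADI and of -1.37, -1.71 and -1.48 in PC mice in the authors' deposited table, so in both groups it is listed in the same direction as Apoa1. Its intensities were not used, because its row lacks PCS values and belongs to 1893 rows in which blank cells make the match of values to mice doubtful.

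Likeness of profile was measured as the root mean square difference between the centred values of a pair of genes over the 18 arrays, each minus its own mean, among the 43 named genes with a value on every array. Chd3, a chromatin helicase gene, was the nearest to Apoa1 at 0.23, followed by Alkbh2, a DNA repair gene, at 0.29 and Bmf, an apoptosis gene, at 0.32, against a median of 0.90 over 42 genes. Nearest to Acat3 were Nyap1 at 0.16, Thap1 at 0.23 and Glcci1 at 0.26, with Apoa1 in place 12 at 0.37. Nearest to Slc10a1 were Orc5, a gene of the origin recognition complex, at 0.21, Tmem145 at 0.28 and Card14, a scaffold gene of NF-kB signalling, at 0.31. Apoa1 and Acat3 were at 2.08 and 2.24 from Slc10a1, against a median of 2.08 for that gene, so neither was among the genes nearest to it. With PO array 2 left out the nearest genes kept their places, except that Bmf was in place 4 for Apoa1, and the distances of Apoa1 and Acat3 from Slc10a1 were 1.77 and 2.02.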

How the data were processed

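Jejunal enterocyte RNA was hybridised to 1-colour Agilent arrays and read with Agilent Feature Extraction, per the submitters' processing notes. Its version and the signal and background settings are not stated in those notes. Each deposited intensity is a linear whole number of at most 65501; 432 are at or below 0, and array medians differ. The authors' deposited table, which supplies the gene names, gives a log2 fold for each mouse, with folds between 0.5 and 2 set to 0 per the file headers.

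Intensities were set to at least 1 and log2 transformed, and limma 3.58.1 (R 4.3.3; Python 3.11.15 with numpy 2.4.6 and pandas 2.3.3 for the rest) fitted 6 group means to 18 arrays with eBayes without trend. In each of 10 comparisons p-values were Benjamini-Hochberg adjusted over 5021 features, with a threshold of 0.05. The 1893 features with a blank PCS cell were left out. Centring subtracts the array median. Other alternatives were further scalings, a floor of 16, a filter on dim features, all rows, a trended and robust eBayes, fits of only the groups compared, a replicate block and single arrays left out. The fit was tested on simulated data with the same SD for every feature and array. That test does not cover arrays such as PO array 2. The members, lists and rules were chosen with earlier results of these data known. Genes named beside the members are those of the 58-gene list with a name in the files and the 3 nearest in profile to each member. Replicate numbers name separate mice. Same-numbered ADI and control arrays deviated together (r of 0.31 to 0.52 across features), the only one of the 9 pairs of groups compared in which all 3 pairs of arrays were over 0.1. With 3 arrays a group, precision is low.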

Additional observations from a re-analysis of the deposited data

Results flagged for a closer look

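Acat3, centred on the array medians, differed in opposite directions with cultivation in flour without and with storage when all arrays were used. Every PC mouse lay above the PO mean, by 0.024 to 1.25, and every PCS mouse lay below the POS mean, with differences from -0.42 to -0.19. The difference itself, tested as the interaction in limma, was -0.91 with an adjusted p of 0.823. The opposite directions rest on PO array 2. Without it PC minus PO was -0.92, the same direction as PCS minus POS at -0.33, and the interaction was 0.59. As deposited, with all arrays, the differences were 0.89 and 0.12, both above 0.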

How the results depend on the processing

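Of 330 values of the 3 genes under alternatives that used all replicates, 315 kept their direction, 15 reversed and 2 passed the threshold, and of 396 values with a single array left out, 348 kept it, 48 reversed and 2 passed. Many of the 330 directions could not change. The filter on dim features, all rows and the trended and robust eBayes leave a difference as it is. So do the fits of only the groups compared and the replicate block. Their centred versions repeat the centred differences, so the 315 do not measure robustness. The cause was not tested where a value reversed. With only the groups compared, the fits called 3519 features for PC against controls, among them Apoa1 at -2.12 and Acat3 at -2.70, 11 for POS against controls, and 1 each for ADI and PCS against controls and PCS against PC. Centring turned Acat3 to -0.030 for PCS minus PC and to -0.33 for PCS minus POS, and Slc10a1 to -0.47 for POS minus PO. The replicate block treats same-numbered arrays as a pairing. Each number occurs once in every group, so the block cannot change a difference, and with centred arrays -0.030, -0.33 and -0.47 necessarily recurred. It changed no call. Scaling to the 75th percentile gave -0.90 for Slc10a1 (POS minus PO) and -0.26 for Acat3 (PCS minus POS). Quantile normalization gave -1.01 and -0.19 for these, -0.041 for Acat3 (PC minus PO) and 0.14 for the Apoa1 interaction. With single arrays left out, over deposited and centred values together, the number of features called ranged from 0 to 2936 for PO against controls (2936 without PO array 3), from 0 to 3 for PC minus PO, and from 0 to 1 for ADI, PC, PCS and POS against controls and for POS minus PO. Slc10a1 against controls ranged from -0.26 to 2.05 in ADI, from -0.040 to 2.37 in PC and from -0.44 to 2.79 in PO mice. In PO mice Apoa1 ranged from -5.56 to -0.060 and Acat3 from -5.80 to -0.23, and in PCS mice Apoa1 ranged from -1.04 to 0.34. For PCS minus PC, Acat3 ranged from -0.31 to 2.06 and Slc10a1 from -0.092 to 3.11. For POS minus PO, Apoa1 ranged from -0.72 to 4.65, Acat3 from -0.99 to 4.45 and Slc10a1 from -0.93 to 1.80. For PC minus PO the ranges were -1.93 to 3.44, -2.34 to 3.10 and -1.79 to 0.81 in the same order. For PCS minus POS they were -0.13 to 1.28, -0.65 to 0.89 and -0.025 to 2.37. The interaction ranged from -2.89 to 2.49 for Apoa1 and from -2.98 to 2.46 for Acat3. In these 2 and in the PO comparisons of Apoa1 and Acat3 the extremes came from leaving out PO array 2 or 3. With 3 arrays a group and PO array 2 near background, differences of the size seen here were not resolved.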
